A study of Rattus norvegicus with 6 samples.

Results

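Etv4 and 9 genes of the feedback loop between fibroblast growth factor (FGF) receptors and the kinase ERK were measured in the retinas of diabetic and control rats. The genes were the 3 transcription factors of the PEA3 family (Etv4, Etv5 and Etv1), the inhibitors Spry1, Spry2, Spry4, Spred1, Spred2 and Dusp6, and the receptor gene Fgfr1. They were taken by symbol from a deposited table of 34170 genes, each symbol occurred once, and all 10 passed the filter on low values that left 16363 genes for testing. Etv4 was chosen by its low FPKM in the diabetic retinas of these same rats, and the other 9 genes were chosen as its partners with those values known, so the values of all 10 are given as a description and without a p-value.

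The diabetic group was 3 male Sprague-Dawley rats, an outbred stock, that had received streptozotocin, a toxin of pancreatic beta cells, at 60 mg/kg into the peritoneum on each of 5 days in a row after a fast of 12 h. Rats with a fasting blood glucose above 16.7 mmol/L at 1 week after the last dose counted as diabetic. The control group, which the labels call WT, was 3 male rats of the same stock that had received the citrate buffer alone. The rats weighed 100.4, 102.5 and 104 g in the diabetic group and 103.4, 110.5 and 106 g in the control group. The sources used here do not give the age of the rats or the day of collection. The labels give a weight of its own for each library's rat, and each library holds RNA of whole retina, made from poly-A RNA. Values are FPKM, fragments per kilobase of gene length and scaled to the size of the library, so that levels can be compared between genes per length. In markers of neighbouring tissues 3 libraries stood apart. The 9 lens markers summed to 11.8 to 46.1 FPKM in the diabetic libraries, against 15.6 and 42.9 FPKM in 2 control libraries and 360.4 FPKM in control 3. The 6 markers of cornea, iris and ciliary body summed to 17.2 FPKM in diabetic 1, 3.79 FPKM in diabetic 2 and 7.55 FPKM in diabetic 3, against 2.53 FPKM in control 1, 12.6 FPKM in control 2 and 3.02 FPKM in control 3.

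FGF receptors are tyrosine kinases that act through the adaptor FRS2 on RAS, RAF, MEK and finally ERK. Active ERK relieves the repression that Capicua exerts on the PEA3 genes, and it switches on inhibitors of its own pathway. Sprouty and Spred proteins act at the level of RAS and RAF, and DUSP6 is a phosphatase that removes the activating phosphates from ERK in the cytoplasm. Messenger RNAs of PEA3 factors, Sprouty genes and Dusp6 are therefore widely used as a readout of FGF and ERK signalling. In the eye, FGF signalling is known for its roles in specifying the neural retina and in the survival of photoreceptors.

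Of the 10 genes, Etv4 stood farthest from its control level. Its mean in diabetic retina was 0.513 times that in control retina, while its relatives Etv5 and Etv1 stood at 0.93 and 0.798 times the control mean. Spry1 and Fgfr1 were higher, at 1.58 and 1.45 times the control mean, and the other 5 genes overlapped between the groups. The groups did not overlap in 4 of the 10 genes, 2 lower (Etv4 and Etv1) and 2 higher (Spry1 and Fgfr1) in diabetic retina. Of all genes tested, 26.2% did not overlap, 13.6% lower and 12.7% higher. In 4 of the 10 genes the log2 difference was below 0, as it was in 49.9% of all genes tested. In limma on log2(FPKM + 0.5), with Benjamini-Hochberg adjustment over all genes tested and a threshold of 0.05, 0% of the genes passed, the 10 included. Unadjusted, 3255 genes had a p below 0.05, and voom on fragments rebuilt from the FPKM passed 2 genes, Asns and Smarcd1, and 0 of the 10. In these bulk samples, fewer cells of a type and less RNA per cell cannot be told apart.

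**Figure D1:**
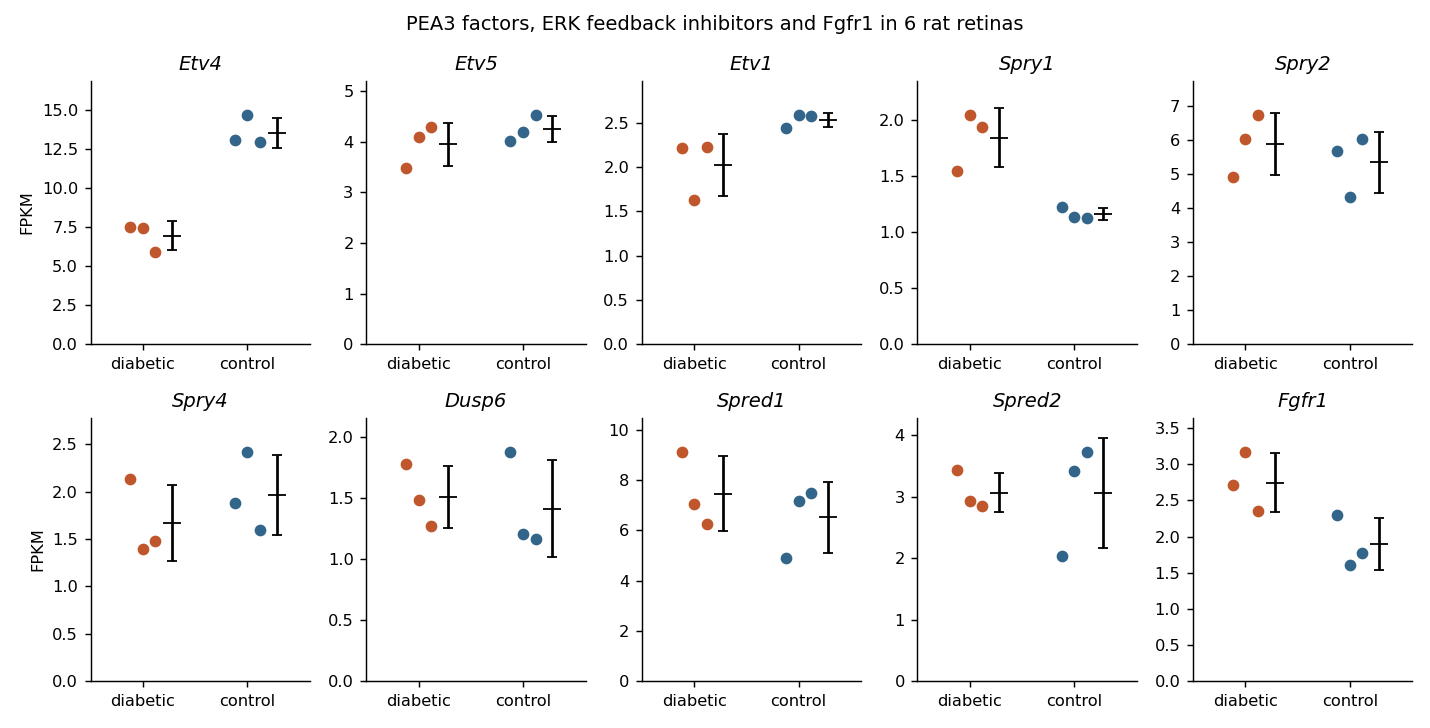
FPKM of the 10 genes (vertical axes, each starting at 0) in diabetic and control retina, with a point per library and the mean and SD beside the points. Etv4 lies between 5.90 and 7.49 FPKM in diabetic retina and between 12.9 and 14.6 FPKM in control retina, while most other genes overlap.

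Beyond their place in the pathway, the genes were compared by the sequence before their start sites. RefSeq, in build GRCr8, gave promoter entries for 8 of the 10 genes, Etv5, Etv1, Spry1, Spry2, Spry4, Dusp6, Spred1 and Spred2. The 250 bases before each start were searched on both strands for the Capicua octamers TGAATGAA, TGAATGGA, TCAATGAA and TCAATGGA, for the ETS site CCGGAAGT, for the AP-1 site TGANTCA and for the cyclic AMP response element TGACGTCA, which do not overlap each other. These words were chosen after some of the sequences had been seen. Dusp6 and Spry4 are shown because they held a Capicua octamer, Spry1 because it was higher in every diabetic library, and Etv1 because its profile over the libraries was the nearest to that of Etv4 among the other 9 genes. Capitals mark the octamers as read on the printed strand.
Dusp6, chr7:35979354-35979603, plus strand: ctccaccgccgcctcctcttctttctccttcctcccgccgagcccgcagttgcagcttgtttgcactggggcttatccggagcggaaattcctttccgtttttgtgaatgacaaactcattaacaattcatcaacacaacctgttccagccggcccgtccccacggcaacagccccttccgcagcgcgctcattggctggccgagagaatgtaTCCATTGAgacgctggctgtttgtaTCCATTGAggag
Spry4, chr18:30702547-30702796, minus strand: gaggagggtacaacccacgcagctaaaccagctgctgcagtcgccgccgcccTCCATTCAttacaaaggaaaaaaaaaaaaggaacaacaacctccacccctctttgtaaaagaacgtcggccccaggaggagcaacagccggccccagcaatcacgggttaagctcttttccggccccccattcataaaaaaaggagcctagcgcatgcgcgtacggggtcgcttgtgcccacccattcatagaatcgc
Spry1, chr2:122485097-122485346, plus strand: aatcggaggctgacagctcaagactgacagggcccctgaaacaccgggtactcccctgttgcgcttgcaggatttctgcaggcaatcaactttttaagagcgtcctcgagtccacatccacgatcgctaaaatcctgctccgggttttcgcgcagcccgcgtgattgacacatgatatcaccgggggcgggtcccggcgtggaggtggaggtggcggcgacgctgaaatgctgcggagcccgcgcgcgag
Etv1, chr6:61317179-61317428, plus strand: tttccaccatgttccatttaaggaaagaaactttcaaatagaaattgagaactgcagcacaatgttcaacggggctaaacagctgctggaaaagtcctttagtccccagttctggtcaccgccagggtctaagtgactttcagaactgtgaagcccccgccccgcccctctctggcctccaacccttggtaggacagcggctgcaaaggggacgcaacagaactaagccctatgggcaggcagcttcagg

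Dusp6 held TCAATGGA at 2 places, from 37 to 30 and from 12 to 5 bases before the start, both on the strand opposite to the gene. Spry4 held TGAATGGA, also on the opposite strand, from 198 to 191 bases before the start. An octamer was found in 2 of the 8 genes, against 3.58% of all 33469 promoter windows of the same length. The ETS, AP-1 and cyclic AMP words were found in 0 of the 8 genes, against 3.10%, 6.34% and 1.59% of all windows. The 8 were counted per gene, although Spry2 had a further window from another start. The background was counted per window, so these shares are in unlike units. A match of letters is not evidence of binding, and Dusp6 and Spry4 both overlapped between the groups.

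The PEA3 factors are ETS-domain activators of transcription. Etv4 was at 7.49, 7.44 and 5.90 FPKM in diabetic 1, 2 and 3, against 13.0, 14.6 and 12.9 FPKM in control 1, 2 and 3. The highest diabetic library was thus well below the lowest control library. The means were 6.94 ± 0.90 FPKM in diabetic and 13.5 ± 0.95 FPKM in control retina (SD, n = 3 each), and the log2 difference was -0.92 ± 0.12 (standard error, here and below after log2 differences of the 10 genes). It was -0.97 without diabetic 1 and -0.86 without control 2, the libraries with high cornea markers, and -0.95 without control 3, the library with high lens markers. The values rest on 270 to 537 fragments per library, for which counting alone gives an error of 4.32% to 6.09%, and the spread between animals was 13.0% in the diabetic and 7.06% in the control group. Per length, Etv4 was an ordinary retinal message, with a mean over the 6 libraries at the 53.7th percentile of the genes tested.

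Etv5 was at 3.48, 4.09 and 4.29 FPKM in diabetic retina, against 4.02, 4.20 and 4.52 FPKM in control retina. The groups overlapped, the log2 difference was -0.096 ± 0.13, and it was 0.028 when the values were rescaled to TPM (FPKM scaled to the same sum in every library). Etv1 was at 2.22, 1.62 and 2.23 FPKM in diabetic retina, against 2.45, 2.59 and 2.58 FPKM in control retina. All 3 diabetic libraries were below the control libraries, diabetic 2 by the most, and the log2 difference was -0.28 ± 0.16. With the trend of gene length removed from each library, that of Etv1, whose length of 6906 bases is above the 90th percentile of the genes tested, was -0.45. The log2 difference of Etv1 was smaller with TPM, at -0.18, and without diabetic 2, at -0.16.

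Ratios within a library do not depend on how the libraries were scaled. The ratio of Etv4 to Etv5 was 2.15, 1.82 and 1.38 in diabetic 1, 2 and 3, against 3.24, 3.48 and 2.86 in control 1, 2 and 3. That of Etv4 to Etv1 was 3.37, 4.58 and 2.65 in diabetic retina, against 5.32, 5.65 and 5.02 in control retina. Neither ratio overlapped between the groups, so Etv4 stood lower relative to both of its relatives. Both ratios rest on the low values by which Etv4 was chosen, and they are given as a description. Of the summed FPKM of the 3 factors, Etv4 made up 53.6 ± 5.29% in diabetic and 66.6 ± 1.89% in control retina (SD, n = 3 each). The sum itself was 12.9 ± 0.43 FPKM in diabetic and 20.3 ± 0.99 FPKM in control retina, and without Etv4 it was 5.98 ± 0.47 FPKM in diabetic and 6.79 ± 0.32 FPKM in control retina, where the groups overlapped.

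**Figure D2:**
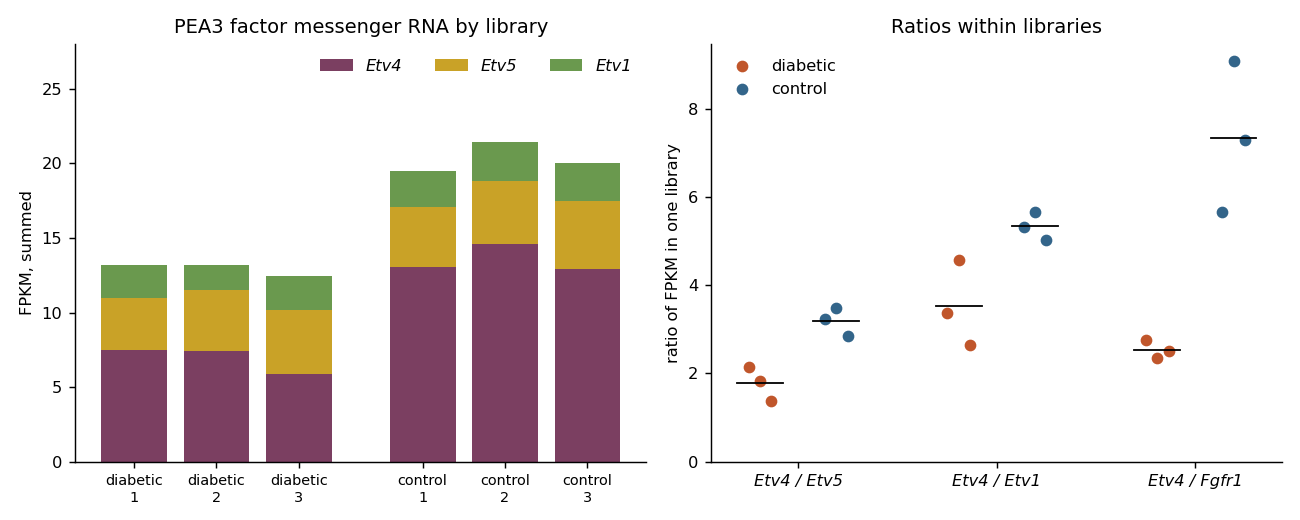
Left, FPKM of Etv4, Etv5 and Etv1 stacked for each library. Right, the ratio of Etv4 to Etv5, Etv1 and Fgfr1 within each library (points) with the group means (lines). Each ratio is lower in every diabetic library than in every control library. Each has Etv4, chosen by its low diabetic values, in the numerator.

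Fgfr1 encodes an FGF receptor at the head of the pathway. It was at 2.71, 3.17 and 2.36 FPKM in diabetic 1, 2 and 3, against 2.30, 1.61 and 1.77 FPKM in control 1, 2 and 3. The groups did not overlap, but diabetic 3 and control 1 lay close together. The log2 difference was 0.44 ± 0.18, on 66 to 182 fragments per library. Receptor and PEA3 factor thus stood apart in opposite directions. The ratio of Etv4 to Fgfr1 was 2.76, 2.35 and 2.50 in diabetic retina, against 5.65, 9.08 and 7.29 in control retina. With Etv4 lower and Fgfr1 higher in every diabetic library, this ratio could not overlap, and it adds no separate result.

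The 3 Sprouty genes encode membrane-associated inhibitors of receptor signalling, and they did not share a direction. Spry1 was at 1.54, 2.04 and 1.93 FPKM in diabetic retina, against 1.23, 1.13 and 1.13 FPKM in control retina. Every diabetic library was above every control library, and the log2 difference was 0.49 ± 0.17. Only 34 to 91 fragments stood behind each value, so that counting alone gives an error of 10.5% to 17.1%. With a pseudocount of 0.1 in place of 0.5 FPKM the log2 difference was 0.61, and with voom on the rebuilt fragments it was 0.68. It was 0.39 with a pseudocount of 1 FPKM and 0.41 under quantile normalization.

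Spry2 was at 4.90, 6.03 and 6.72 FPKM in diabetic retina, against 5.67, 4.34 and 6.03 FPKM in control retina. Its groups overlapped, the log2 difference was 0.13 ± 0.17, and without control 2 it was -0.0020. The table places Spry2 within the span of Mycbp2 on the same strand, a gene at a mean of 15.5 FPKM, and whether reads were shared was not tested. Spry4 was at 2.13, 1.39 and 1.48 FPKM in diabetic retina, against 1.88, 2.42 and 1.59 FPKM in control retina, and its groups overlapped, with diabetic 1 above 2 of the control libraries. Its log2 difference was -0.19 ± 0.21. The share of Spry1 in the summed Sprouty FPKM was 19.5 ± 1.84% in diabetic and 13.7 ± 0.75% in control retina (SD, n = 3 each), and the groups did not overlap. The sum itself was 9.39 ± 0.78 FPKM in diabetic and 8.47 ± 0.51 FPKM in control retina and overlapped.

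The Spred proteins bind neurofibromin and lower RAS activity. Spred1 was at 9.12, 7.04 and 6.25 FPKM in diabetic retina, against 4.88, 7.18 and 7.49 FPKM in control retina. Spred2 was at 3.44, 2.93 and 2.84 FPKM in diabetic retina, against 2.04, 3.42 and 3.73 FPKM in control retina. In both genes the groups overlapped, diabetic 1 was the highest of its group and control 1 the lowest of its group. The log2 differences were 0.19 ± 0.20 for Spred1 and 0.033 ± 0.22 for Spred2, and without control 1 they were 0.0087 and -0.19. That of Spred2 was also below 0 under quantile normalization, at -0.025.

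Dusp6, the ERK phosphatase gene, was at 1.77, 1.48 and 1.27 FPKM in diabetic retina, against 1.88, 1.20 and 1.16 FPKM in control retina. The groups overlapped almost fully, with control 1 highest of all. The log2 difference was 0.082 ± 0.22, and it was -0.012 without diabetic 1 and -0.0098 without control 3. The value in control 2 rests on 40 fragments, where counting alone gives an error of 15.8%.

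Among the 10 genes Etv4 was the highest in control retina, with no overlap with Spred1, the next in order. In diabetic retina Spred1 came first, at 7.47 ± 1.49 FPKM against 6.94 ± 0.90 FPKM for Etv4, and the ranges of both genes and of Spry2 overlapped. Below them in diabetic retina came Etv5, then Spred2 and Fgfr1, whose ranges overlapped, and then Etv1, Spry1, Spry4 and Dusp6, where each overlapped the next. In control retina Spred1, Spry2 and Etv5 followed Etv4 and each overlapped the next, and Spred2 and Etv1 came after them. Spry4 and Fgfr1 overlapped below these, and Dusp6 and Spry1 stood last in control retina, at 1.41 ± 0.40 and 1.16 ± 0.06 FPKM. The median log2 difference of the 10 genes was 0.058 and their mean was -0.011, against a median of 0.00034 over all genes tested. Summed without Etv4, the other 9 genes came to 30.2 ± 1.03 FPKM in diabetic and 28.1 ± 1.83 FPKM in control retina (SD, n = 3 each), and the groups overlapped.

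**Figure D3:**
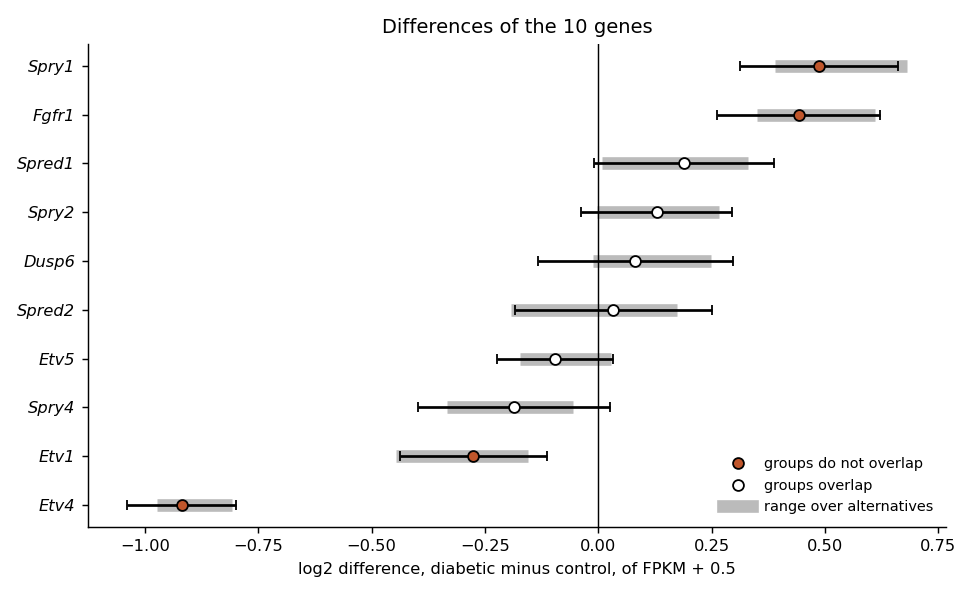
Log2 difference of FPKM + 0.5, diabetic minus control, for each of the 10 genes (points, with the standard error from limma as bars) and the range over 18 alternative settings (grey). Etv4 stays between -0.97 and -0.81, and Etv5, Spry2, Dusp6 and Spred2 cross 0.

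Upstream of the receptors, 11 of 21 FGF ligand genes were expressed at a level that could be tested, and 0 passed in either direction, with a median log2 difference of -0.021. Fgf2, a ligand known for protecting photoreceptors, was at 8.86, 5.58 and 10.6 FPKM in diabetic retina, against 4.25, 1.69 and 3.87 FPKM in control retina (log2 difference 1.26, adjusted p = 0.145, limma). Fgf2 overlaps Nudt6 on the opposite strand, at a mean of 16.9 FPKM, and without strand marking the reads of such partners cannot be told apart. Fgf14, whose product stays inside neurons and acts on sodium channels, averaged 4.50 ± 1.00 FPKM in diabetic and 2.53 ± 0.30 FPKM in control retina (adjusted p = 0.138, limma). Fgf22 had a log2 difference of -0.18, and Fgf4 was listed at 0 in all libraries.

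Of 5 other receptor and co-receptor genes found in the table, 4 could be tested, and 0 of them passed or stood apart. Fgfr4 averaged 4.56 ± 0.43 FPKM in diabetic and 4.88 ± 1.38 FPKM in control retina, above Fgfr1 in both groups. The decoy-like receptor gene Fgfrl1 and the co-receptor gene Kl had log2 differences of -0.16 and 0.18. Among 9 adaptor genes tested, 0 passed. Frs2, the adaptor of FGF receptors, averaged 11.1 ± 0.30 FPKM in diabetic and 9.17 ± 0.20 FPKM in control retina (log2 difference 0.27, adjusted p = 0.170, limma), and 0.10 with the length trend removed. The docking protein gene Gab1 had 0.35, and Frs3 had -0.17 with overlap.

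In the cascade from RAS to ERK, 0 of 15 genes tested passed, and 5 were higher and 3 lower without overlap, 53.3% in all against 26.2% of all genes tested. Hras averaged 20.4 ± 0.93 FPKM in diabetic and 27.7 ± 1.13 FPKM in control retina (log2 difference -0.43, adjusted p = 0.127, limma). Nras averaged 10.9 ± 0.66 FPKM in diabetic and 8.17 ± 1.01 FPKM in control retina, a log2 difference of 0.40, and the kinase gene Braf had 0.41. These 3 genes, named for their small p in this list, kept their sign under all 18 alternatives. The alternatives of filter, gene type, intensity trend and replicate block cannot change a sign.

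Of 12 other inhibitors of the pathway tested 0 passed, and 5 were higher and 2 lower without overlap, 58.3% in all against 26.2% of all genes tested. Dusp4, a nuclear phosphatase of ERK and a common readout of the pathway, was at 7.89, 6.06 and 6.68 FPKM in diabetic retina, against 9.21, 9.01 and 8.89 FPKM in control retina (log2 difference -0.38, adjusted p = 0.170, limma). Its groups did not overlap, in contrast with Dusp6. Nf1, the gene of neurofibromin, had a log2 difference of 0.48, and 0.26 with the length trend removed; it overlaps Omg on the opposite strand, at a mean of 18.3 FPKM. Pebp1, the RAF kinase inhibitor protein gene, had -0.23 and was at -0.0072 under quantile normalization.

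The known regulators of PEA3 factors gave 0 passing genes of 8 tested, with a median log2 difference of -0.0030. The Capicua gene Cic was at 31.1, 43.5 and 45.9 FPKM in diabetic retina, against 33.5, 29.0 and 40.4 FPKM in control retina, with overlap; it was added to the named genes after its values were seen. Its partner Atxn1 had a log2 difference of 0.40 with overlap. Cop1, a ubiquitin ligase that targets PEA3 proteins, had -0.17. Trib2, a pseudokinase relative of the COP1 partner TRIB1, had -0.15. Both were lower without overlap, and with TPM they were at -0.032 and -0.017. Trib1 itself had 0.19, higher without overlap, and was also named after its values were seen. Of the 8 regulators tested, 1 was higher and 2 lower without overlap, 37.5% in all against 26.2% of all genes tested. Of 11 other ETS factors tested 0 passed. The log2 difference was positive in 8 and below 0 in 3, where 49.9% of all genes tested were below 0. Of the 11, 4 were higher and 0 lower without overlap, 36.4% in all against 26.2% of all genes tested. Their median log2 difference was 0.14, and 0.053 with the length trend removed. Etv6, an ETS repressor, was at 3.02, 3.88 and 4.09 FPKM in diabetic retina, against 1.81, 1.77 and 2.16 FPKM in control retina (log2 difference 0.78, adjusted p = 0.128, limma). Ets2 had 0.39 without overlap and Elf1 had 0.37 with overlap.

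Immediate early genes answer ERK within minutes, and 0 of 15 tested passed. Of these, 3 were lower and 0 higher without overlap, a share of 20%. Of all genes tested, 26.2% did not overlap in either direction and 13.6% were lower without overlap. The median log2 difference of the list was 0.038. Ier2 averaged 26.6 ± 5.08 FPKM in diabetic and 39.4 ± 1.79 FPKM in control retina (log2 difference -0.57, adjusted p = 0.131, limma). The nuclear receptor gene Nr4a1 averaged 6.85 ± 1.17 FPKM in diabetic and 10.9 ± 2.72 FPKM in control retina, a log2 difference of -0.62. The phosphatase gene Dusp1 averaged 14.0 ± 2.85 FPKM in diabetic and 20.3 ± 3.15 FPKM in control retina, a log2 difference of -0.53. Among 5 further genes used as ERK readouts, with Dusp4 counted again, 0 passed; Phlda1 had -0.18 with overlap and Epha4 had 0.13, which was -0.026 with the length trend removed.

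Other receptor tyrosine kinases, which feed the same cascade, gave 0 passing genes of 15, of which 6 were higher and 1 lower without overlap (46.7%, against 26.2% of all genes tested). Their median log2 difference was 0.27, but 0.087 with the length trend removed and 0.42 with TPM. Insr, Igf1r and the neurotrophin receptor gene Ntrk3 had 0.50, 0.75 and 0.53. With the length trend removed these were 0.33, 0.67 and 0.49. Over all 10 lists, 104 genes were tested, 35.6% of them did not overlap between the groups, against 26.2% of all genes tested, and the median log2 difference was 0.064, against 0.00034 over all genes tested.

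**Figure D4:**
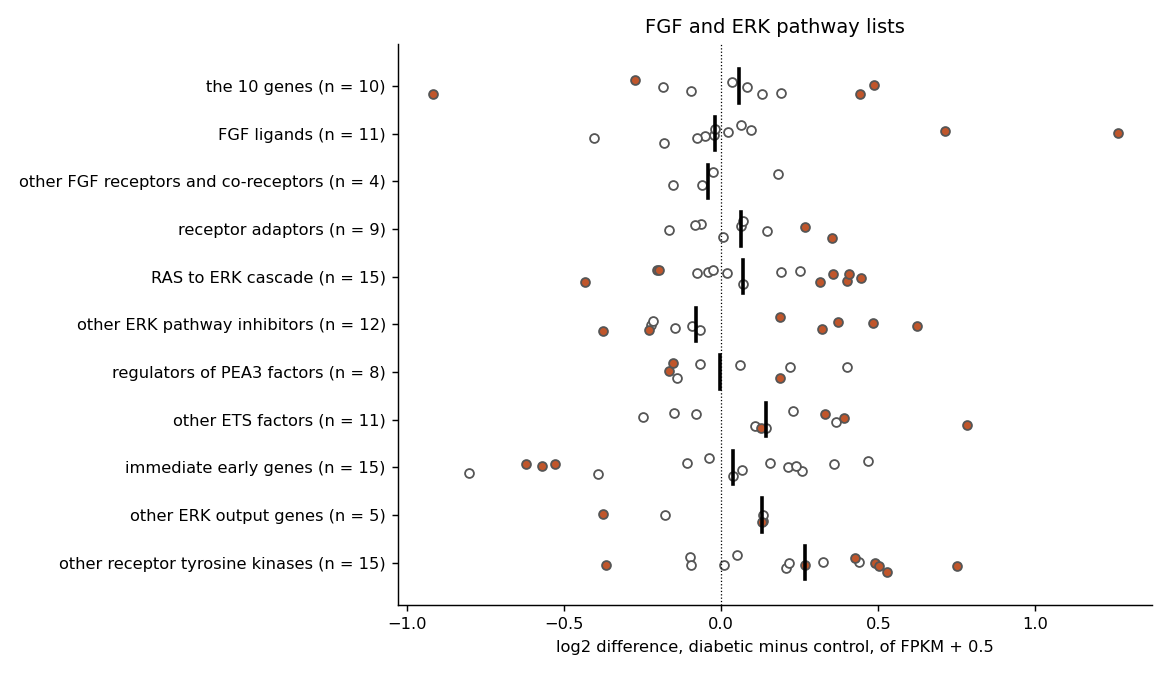
Log2 difference of FPKM + 0.5, diabetic minus control, of every tested gene of the 10 pathway lists and of the 10 genes described first; orange points are genes whose groups do not overlap, and black bars are list medians. Etv4, at -0.92, is the lowest point of the plot, and Fgf2, at 1.26, is the highest.

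The genes whose profile over the 6 libraries was nearest to that of Etv4 were found by the root mean square difference of log2(FPKM + 0.5), each gene taken as deviations from its own mean. Of 9805 genes with a symbol and a mean of at least 5 FPKM they were Fcer1a (0.099), LOC100363469 (0.116), AABR07032821.1 (0.135), LOC100361933 (0.144) and Smarcd1 (0.146), against a median of 0.478 over all of these genes. Fcer1a, the alpha chain gene of the high-affinity IgE receptor, averaged 6.59 ± 1.01 FPKM in diabetic and 12.9 ± 1.24 FPKM in control retina. Distances below the median, and lower values in diabetic retina, follow from how these genes and Etv4 were chosen. Of the other 9 genes of the feedback loop, the nearest was Etv1 (0.379) and the farthest was Spry1 (0.726).

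In the table Etv4 lies on the minus strand of chromosome 10, between positions 89685058 and 89700283, and no other gene of the table overlaps it. The sources used here do not name the genome build of these coordinates. Dhx8, an RNA helicase gene that ends 1612 bases away on the other strand, was at 15.4, 13.7 and 14.0 FPKM in diabetic retina, against 15.0, 16.0 and 14.6 FPKM in control retina, with a log2 difference of -0.076 and overlap. On the same side as Dhx8, RGD1561590 lay 48865 bases away, at a mean of 17.2 FPKM. Its log2 difference was -0.22 with overlap. Within 100 kb on the other side, an entry without a symbol 49775 bases away had a log2 difference of -0.61 and AABR07030482.1 had -0.57. Both were without overlap and at a low level, with means over the 6 libraries of 2.83 and 0.707 FPKM. Meox1 was near 0 in all libraries.

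The libraries held 12417686 to 19115426 fragments, fewest in control 2 and control 3. Rod markers marked them as retina, with Gnat1, the rod transducin alpha gene, at 3638, 3286 and 3607 FPKM in diabetic 1, 2 and 3, against 4779, 5127 and 5146 FPKM in control 1, 2 and 3. Of 14 lists of cell type markers, 3 had sums that did not overlap between the groups, all lower in diabetic retina. The FPKM of all genes also summed lower in diabetic libraries (467488 to 500107) than in control libraries (514771 to 552093). The marker sums were not rescaled for this, so a lower sum is not by itself a lower share of the library. The 6 rod markers ranged in their sum over 10184 to 11901 FPKM in diabetic libraries and 13567 to 13758 FPKM in control libraries, with 4 of 6 genes lower without overlap, as were 13.6% of all genes tested. The 6 cone markers ranged in their sum over 523.2 to 588.1 FPKM in diabetic libraries and 606.9 to 673.1 FPKM in control libraries, with 1 of 6 lower and 1 of 6 higher without overlap, a share near the 26.2% of all genes tested. The 5 pericyte markers ranged in their sum over 6.39 to 7.60 FPKM in diabetic libraries and 9.06 to 14.2 FPKM in control libraries, with 3 of 4 tested genes lower without overlap, against 13.6% of all genes tested, and none at 0. The sums of the 10 Muller glia markers, from 1709 to 2034 FPKM in diabetic and from 2010 to 2293 FPKM in control retina, overlapped, and so did those of the 8 ganglion cell markers. Of 5 endothelial markers found in the table, Cldn5 was listed at 0 in every library. The part of rods, cones and pericytes in the lower Etv4 was not tested.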

How the data were processed

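Poly-A RNA of the retinas of 6 rats was sequenced as read pairs. The submitters' processing notes name HISAT2 2.0.5 as aligner, and the sources used here name no counting tool, build or annotation. The authors deposited FPKM per gene and library, with gene length. FPKM times length was a whole multiple of 1 step in each library (100% of values within 0.05 of a whole number), and fragments were rebuilt from these steps. Libraries were grouped by their titles.

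limma 3.58.1 (R 4.3.3) was run on log2(FPKM + 0.5) of genes whose mean reached 0.5 FPKM (group as the only term, intensity trend, two-sided moderated test, Benjamini-Hochberg over 16363 genes, threshold 0.05). FPKM were not rescaled. Differences on this scale understate those of low genes, and counting errors cover counting only. Members and lists were chosen with earlier results of these data known. Named genes were the 10 members, up to 3 of smallest p in each pathway list and the 5 nearest profiles to Etv4. Neighbouring genes, markers, Cic and Trib1 were named besides. A marker of the cell type lists is not reported here and was left out of its list's sum. On simulated data with 16363 genes, 72.9% of 96 genes changed by 1 and 93.3% of 104 changed by 2 on the log2 scale were recovered, and 16 of 183 calls were unchanged genes. The simulation gave every gene the same spread beyond counting, which real genes need not share. Its rates are therefore not the power in these data. Every pair of libraries differed by more than sampling noise (lowest chi-square divided by its degrees of freedom 10.0). By this measure control 3 was nearest to control 2 (13.4). It was nearer to each diabetic library (15.4 to 16.6) than to control 1 (18.6). Alternatives were other pseudocounts, filters, scalings and fits, and leaving out each library. Promoters came from RefSeq (GRCr8). Figures were drawn with matplotlib 3.10.9.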

Additional observations from a re-analysis of the deposited data

How the results depend on the processing

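Under 18 alternatives Etv4 kept its sign and stayed within 1 SD of -0.92, between -0.97 (without diabetic 1) and -0.81 (with TPM and without diabetic 3). Etv1, Spry1, Spry4, Spred1 and Fgfr1 also kept their sign in all 18, Etv5 and Spry2 in 17, Dusp6 in 16 and Spred2 in 14. Some of this was fixed in advance. Other filters, protein-coding genes alone, no intensity trend and the replicate block cannot change the log2 difference of a single gene. Etv4 was also chosen by its low diabetic values, so its kept sign is a description. The number of the 10 genes lower in diabetic retina was 4, with a range from 3 with TPM to 6 without diabetic 1. Their median log2 difference of 0.058 was 0.19 with TPM, -0.010 under quantile normalization and 0.13 with voom on rebuilt fragments, and when 1 library was left out it ranged from -0.061 to 0.082. TPM moved the median of all genes to 0.13, and the genes at an unadjusted p below 0.05 were then 3009 higher and 692 lower, against 1498 higher and 1757 lower with FPKM, 1140 higher and 2325 lower with median centring, and 2210 higher and 1203 lower with voom. The count of genes passing was 0 (limma; 3255 at an unadjusted p below 0.05), 2 with voom, and 0 to 4 when 1 library was left out, 4 without diabetic 1 (Tnip1, Gpx3, RGD1563601 and RF00066), 1 without diabetic 2 (NEWGENE_1310561) and 1 without control 2 (an entry without a symbol), with 0 of the 10 genes called in any setting; these were named after their values were seen. The replicate numbers in the titles did not pair the libraries, with correlations of same-numbered deviations between -0.076 and 0.00061, and 0 of 6 libraries correlated best with its own number. With the replicate block the count passing was 0, with 2790 genes at an unadjusted p below 0.05, and it changed no call. Depth limits Spry1 and Dusp6 most, with 34 and 40 fragments in their lowest libraries. The cause of these movements was not tested.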
